A study of Mus musculus with 33 samples.

Results

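The 10 genes studied here encode components of the perineuronal net or related matrix proteins and proteoglycans. They were followed through 33 bulk RNA-seq libraries of the mouse hypothalamus, from intact mice and after ovariectomy (OVX). The genes were *Ncan*, *Acan*, *Bcan*, *Vcan*, *Hapln1*, *Hapln2*, *Hapln4*, *Tnr*, *Tnc* and *Ptprz1*. They are 10 of the 41565 named genes in the deposited table, and all 10 passed the filter on low values in both regions. They were taken by name, and the list was chosen on a readout of these libraries, because *Ncan* was lower in the preoptic area (POA) 4 months after OVX. For the posterior hypothalamus (PH) there were 4 intact, 6 short-term (14 days) and 6 long-term (4 months) post-OVX libraries. For the POA there were 5, 6 and 6. All mice were WT C57BL/6 females bred in-house, OVX was bilateral and was done in adults, and the intact mice, whose libraries are titled sham, were euthanized in diestrus without OVX. The long-term mice were thus also older than the others, and age and time since OVX cannot be told apart. Each group holds libraries of both batches, which were read from the prefix of the library names. What the prefixes stand for is not stated in the sources used here.

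After OVX, *Ncan* was lower in the POA than in intact mice of the same batch, at both times. At 4 months it passed the threshold after adjustment over all genes, in the comparison on which the list was chosen. That call was lost in 8 of 16 other settings, a required fold change among them, and in 12 of 17 fits that left out a library. At 14 days *Ncan* did not pass, and that comparison uses the same intact libraries. In the PH, *Acan* was higher 4 months after OVX in all 6 libraries, and *Hapln2* was higher in most libraries of both regions at that time than in the intact ones of the same batch, but neither passed the threshold after adjustment over all genes. *Hapln4* was lower in the POA at 14 days within both batches, also without passing it. For the remaining 6 members the groups overlapped over both batches in every comparison. In no comparison were they apart in the same direction within both batches, although some, *Bcan* in the POA among them, were apart within a single batch.

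Perineuronal nets are lattices of extracellular matrix around the soma and proximal dendrites of certain neurons, parvalbumin neurons among them. Their backbone is hyaluronan, to which the lecticans bind (neurocan, aggrecan, brevican and versican, encoded by *Ncan*, *Acan*, *Bcan* and *Vcan*), a family of chondroitin sulfate proteoglycans. Link proteins of the Hapln family stabilize this bond, and tenascin-R crosslinks the lecticans. Nets limit the plasticity of the neurons they enclose, and in the hypothalamus they are found in several nuclei, the arcuate nucleus included.

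Several members lie next to each other in the genome (GRCm39, GENCODE M39). *Ncan* lies on the minus strand of chromosome 8 (70538926 to 70573523) and *Hapln4* on the plus strand (70536106 to 70543533). Their annotated extents overlap by 4608 bases, but the exons of their canonical transcripts share 0 bases. *Bcan* (chromosome 3, 87894835 to 87910177) and *Hapln2* (87926800 to 87934890) are both on the minus strand, 16.6 kb apart. *Vcan* (chromosome 13, 89803431 to 89890814, minus strand) and *Hapln1* (89686581 to 89759950, plus strand) are 43.5 kb apart. *Acan* lies on chromosome 7 (78702964 to 78764847), 2 bases from *Hapln3*. In each of these pairs, 0 protein-coding genes lie between the partners. *Tnr* (chromosome 1, 159351339 to 159759299, plus strand), *Tnc* (chromosome 4, 63878014 to 63965443, minus strand) and *Ptprz1* (chromosome 6, 22875358 to 23054236, plus strand) have no other member on their chromosome.

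Because the groups differ in ovarian hormones, the promoters (250 bases before to 50 bases after the start of the canonical transcript) were searched on both strands for the estrogen response element GGTCANNNTGACC, its half-site AGGTCA, the TATA box TATAAA and the GC box GGGCGG. The full element can contain the half-site. The full element was found in 0 of 10 members and in 0.0506% of 21738 protein-coding promoters. The half-site was found in 1 of 10, *Bcan*, and in 15.1% of all promoters, the TATA box in 1 of 10, *Ncan*, and in 13.2%, and the GC box in 5 of 10 and in 42.5%. The promoters of *Ncan*, the gene on which the list was chosen, and of *Acan*, the member with the largest difference in the PH, are shown for their contrast in composition (55.7% and 73.7% G and C). Capitals mark the matches, read from the GRCm39 genome at chr8:70573474-70573773 (minus strand) and chr7:78702714-78703013 (plus strand).
Ncan: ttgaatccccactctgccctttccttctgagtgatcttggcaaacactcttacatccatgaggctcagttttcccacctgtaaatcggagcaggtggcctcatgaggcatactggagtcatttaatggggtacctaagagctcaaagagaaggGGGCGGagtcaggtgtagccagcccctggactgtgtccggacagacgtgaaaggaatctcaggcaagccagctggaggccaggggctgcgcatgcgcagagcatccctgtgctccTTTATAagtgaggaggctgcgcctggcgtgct
Acan: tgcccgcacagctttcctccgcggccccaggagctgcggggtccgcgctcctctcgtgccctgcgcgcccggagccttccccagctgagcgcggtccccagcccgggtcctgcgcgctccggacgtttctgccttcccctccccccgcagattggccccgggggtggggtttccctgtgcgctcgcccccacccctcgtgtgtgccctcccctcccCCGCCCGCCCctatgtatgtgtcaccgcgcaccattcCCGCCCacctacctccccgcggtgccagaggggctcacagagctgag
The *Ncan* window holds a GC box at position -97 and a TATA box at position 19, counted from the transcript start as 1. In the *Acan* window, 3 GC boxes start at -34, -30 and 4, and the first pair overlap. A match is a string of letters in this window and no evidence that a factor binds there.

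The deposited values are a normalized signal on a linear scale, and the lowest genes share a floor of 22.1 rather than 0. They are not counts, so the sequencing depth is unknown and no counting error can be given. The log2 values of 108 genes at the floor fall on 1 line across the libraries, and 83.5% of its variation lay between the regions, so levels were not compared between the PH and the POA. One library, replicate 5 of the PH at 14 days, stood apart on the first surrogate variable (SV1), at 0.785 against 0.195 or less in the others. The neuron, astrocyte, oligodendrocyte, oligodendrocyte precursor and microglia markers that were looked up (12, 12, 10, 8 and 10 genes) all reached 2 times the floor in every library. In bulk tissue, fewer cells of a type and less RNA per cell cannot be told apart.

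The 10 members spanned a wide range of levels. Levels between genes are given as signal above the floor per kb of the canonical transcript, as the mean ± SD over the libraries of a region. In the PH, *Bcan* (2005 ± 540, n = 16) and *Ptprz1* (1953 ± 282) were highest. *Hapln4* (847 ± 155), *Tnr* (822 ± 66.5) and *Ncan* (723 ± 151) followed, then *Hapln2* (377 ± 120). *Hapln1* (99.3 ± 26.8), *Vcan* (93.7 ± 11.4), *Tnc* (50.9 ± 16.4) and *Acan* (23.9 ± 8.71) were lowest. The POA had the same order, from 2197 ± 581 for *Bcan* to 22.5 ± 3.11 for *Acan* (n = 17). Neighbors in this order differed by less than the larger of their SDs for *Bcan* and *Ptprz1*, for *Hapln4*, *Tnr* and *Ncan*, and for *Hapln1* and *Vcan* in both regions, and for *Tnc* and *Acan* in the POA. *Bcan* stood above 93.8% of the genes ranked in the PH and *Acan* above 19.4%. Aggrecan, the lectican most often used to mark nets, was thus the member nearest the floor, at 9.23 times the floor in the mean of the PH libraries and 8.75 times in the POA.

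**Figure D1:**
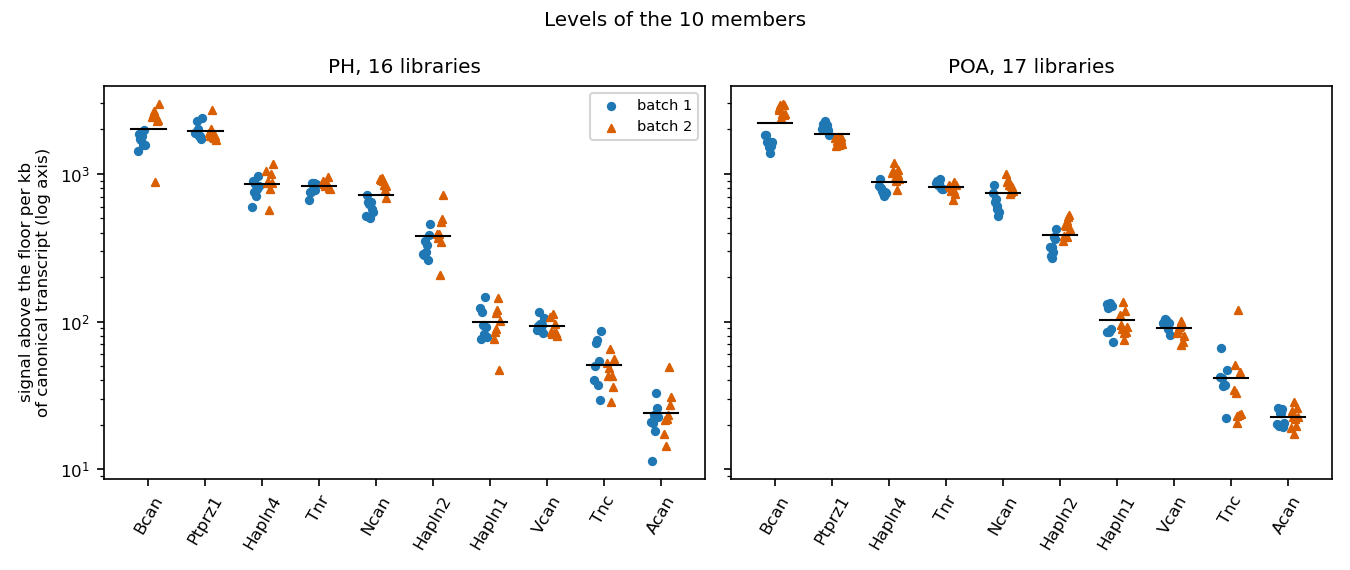
Level of each of the 10 genes (signal above the floor per kb of canonical transcript, log axis) in the 16 PH and 17 POA libraries, with batch 1 as circles, batch 2 as triangles and the mean as a line. Bcan and Ptprz1 are at the top and Acan at the bottom in both regions, and Bcan separates by batch in the POA.

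The batches differed in several members, so differences of *Ncan*, *Acan*, *Hapln2* and *Hapln4* are also described within batches. For the other members this was done where all libraries of a group lay apart from the intact ones of a batch. In the POA, *Bcan* lay between 5265 and 6991 in the 8 libraries of batch 1 and between 9171 and 11370 in the 9 of batch 2, with no overlap. *Ptprz1* went the other way, with 17525 to 21730 in batch 1 and 14764 to 16775 in batch 2. For *Ncan*, batch 2 was higher by 0.52 in the PH and 0.35 in the POA on the log2 scale, averaged over the 3 groups.

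*Ncan* encodes neurocan, a lectican made by neurons and astrocytes. In the POA its signal in the intact mice was 5381 and 6070 in batch 1 and 7240, 6385 and 6537 in batch 2. At 14 days it was 4663, 4915 and 4343 in batch 1 and 6093, 5242 and 5982 in batch 2. At 4 months it was 4152, 3727 and 3968 in batch 1 and 5458.2, 5892 and 5520 in batch 2. Within each batch, all 3 libraries at either time lay below every intact library, whereas over both batches the groups overlapped. The means were 6323 ± 679 (SD, n = 5), 5206 ± 709 (n = 6) and 4786 ± 939 (n = 6).

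In the limma fit on log2 signal with SV1, *Ncan* differed from intact mice on the log2 scale by -0.35 (SE 0.06, fold change 0.783) at 4 months and -0.23 (SE 0.06, fold change 0.855) at 14 days. Between 14 days and 4 months the difference was -0.13 (SE 0.06). Within batches, the difference at 4 months was -0.53 in batch 1 and -0.26 in batch 2, and at 14 days it was -0.30 and -0.22. No *P* value is given for *Ncan* in the POA, since the list was chosen on its call at 4 months and the other POA comparisons share libraries with it. That call was also the only one among the 10 members in this comparison (1 of 10, against 0.0937% of the 21350 genes tested). It was lost in 8 of 16 other settings and in 12 of 17 fits that left out 1 library, which were intact replicates 1, 2, 3 and 5, 14-day replicates 1, 2, 3 and 4, and 4-month replicates 1, 2, 3 and 6. Without each of these the log2 difference lay between -0.37 and -0.31. Among the 8 settings was a required fold change of at least 1.5, which the fitted 0.783 could not meet. The nearest member outside the threshold was *Hapln2*, which was higher by 0.37 (SE 0.09).

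In the PH, *Ncan* was 3761 and 5151 in the intact mice of batch 1 and 6626 and 6579 in those of batch 2. At 14 days it was 4676, 4503 and 3646, then 6745, 6476 and 6022, and at 4 months 4623, 4166 and 3991, then 5641, 4948 and 6002. The groups overlapped, although in batch 2 the 3 libraries at 4 months lay below both intact ones. The log2 difference was -0.17 at 4 months (95% CI -0.57 to 0.23, adjusted *P* = 0.933, limma), 0.0052 at 14 days (95% CI -0.40 to 0.41, adjusted *P* = 0.99984) and -0.17 between the times (adjusted *P* = 0.9996). The sign at 14 days changed with the settings, to -0.047 when batch took the place of SV1 and to -0.073 without replicate 5 at 14 days. The interval at 4 months includes the POA value, so the PH data do not separate no difference from one of that size. The difference between the regions in the 14-day change was 0.29 (SE 0.20) and that in the 4-month change 0.19 (SE 0.20). Both are given without a test, since they use the intact POA libraries of the comparison on which the list was chosen.

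**Figure D2:**
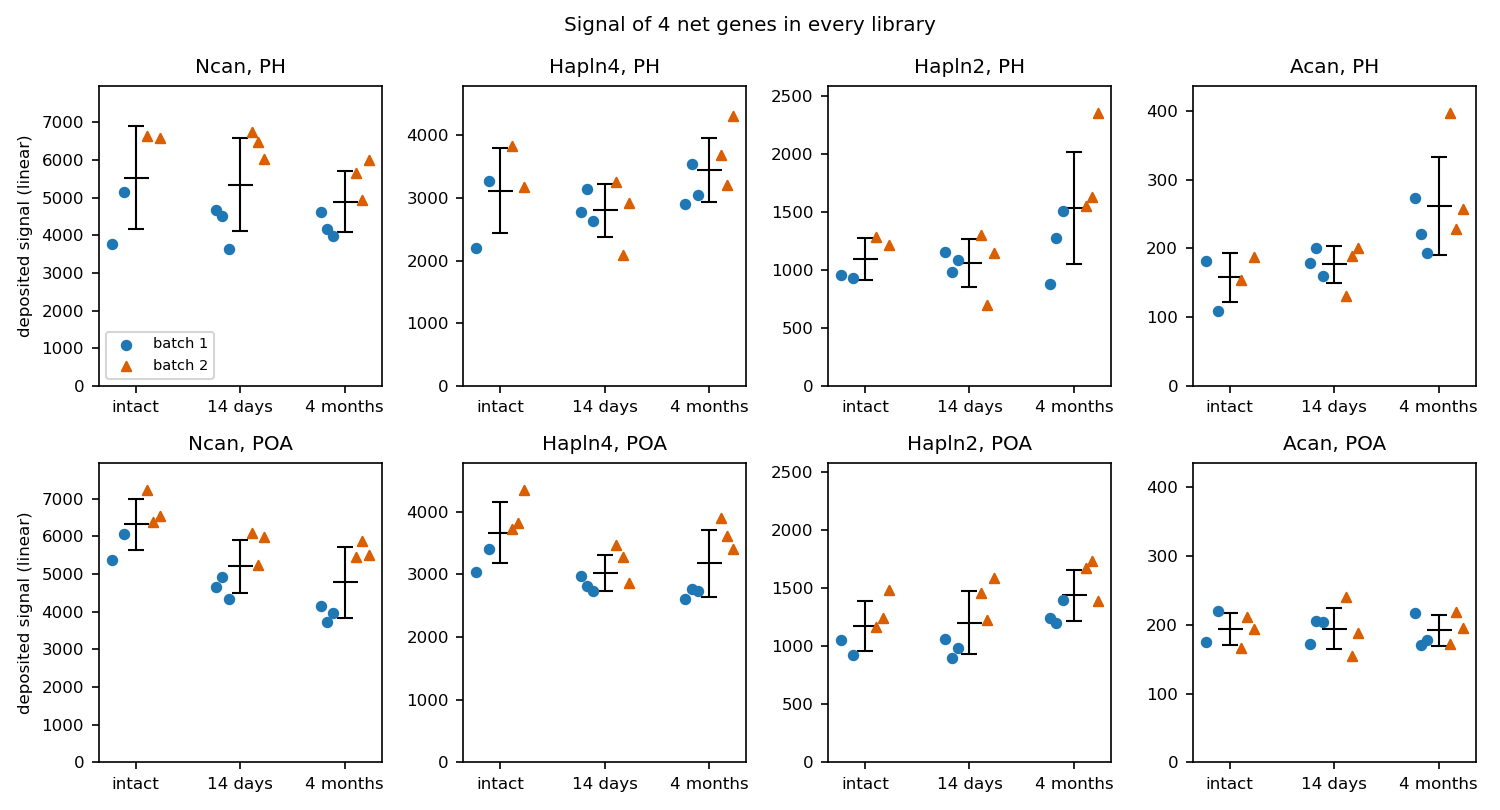
Deposited signal (linear) of Ncan, Hapln4, Hapln2 and Acan in each library of the PH (upper panels) and POA (lower panels) by group, with batch 1 as circles, batch 2 as triangles, and the mean ± SD in black. Ncan in the POA is lower after OVX within each batch, and the 6 Acan values at 4 months in the PH, 193.7 to 396.4, lie above the 4 intact ones.

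*Acan* encodes aggrecan. In the PH its signal was 182.2, 109.1, 153.7 and 186.8 in the intact mice and 178.7, 200.9, 160.2, 131.2, 189.4 and 200.1 at 14 days. At 4 months it was 273.9, 221.1, 193.7, 396.4, 228.2 and 257.4. All 6 libraries at 4 months were above all 4 intact ones, whereas the groups at 14 days and intact overlapped. The log2 difference at 4 months was 0.72 (SE 0.19, 1.65-fold, adjusted *P* = 0.406, limma), and relative to 14 days it was 0.54 (SE 0.18, adjusted *P* = 0.9996). It was thus not called after adjustment over 21977 genes, at unadjusted *P* values of 0.00149 and 0.00845. Within batches, the difference at 4 months was 0.69 and 0.75. Without replicate 4 at 4 months, which held the highest value, it was 0.595.

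In the POA, *Acan* ranged from 166.5 to 220.5 in intact mice, from 155 to 240.2 at 14 days and from 170.1 to 219.1 at 4 months. The groups overlapped almost entirely, with log2 differences from intact of -0.0027 at 14 days (SE 0.12, adjusted *P* = 0.997, limma) and -0.01 at 4 months (SE 0.12). The 4-month change in the PH exceeded that in the POA by 0.73 (SE 0.23), a value given without a test. Parvalbumin neuron markers were 5 of 8 higher and 3 lower in the PH at 4 months, with a median log2 difference of 0.11 and a summed signal of 30970 to 41213 against 26655 to 34336 in intact mice. *Syt2*, a synaptotagmin of fast-spiking neurons, differed by 0.48 and *Pvalb* by 0.22. In the POA, *Pvalb* differed by 0.62 at 4 months. The part of these cells in the *Acan* result was not tested.

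*Bcan* and *Vcan* encode brevican and versican, the other lecticans. *Bcan* ranged from 5506 to 9729 in the intact PH, from 3392 to 10244 at 14 days and from 5996 to 11357 at 4 months. Its lowest value was that of replicate 5 at 14 days, the library that stood apart. In the POA it ranged from 6990 to 11123, 5771 to 11370 and 5265 to 11254. *Vcan* ranged from 1022 to 1486 over the 16 PH libraries and from 893.5 to 1329 over the 17 of the POA. Over both batches the groups overlapped for both genes, and their log2 differences in the fits lay between -0.13 and 0.06 in the 6 comparisons. Within batch 1 of the POA, however, all 3 *Bcan* libraries at either time lay below both intact ones. The log2 difference there was -0.18 at 14 days and -0.27 at 4 months. In batch 2 the *Bcan* groups overlapped, with -0.095 and -0.075.

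*Hapln4* and *Hapln2* encode link proteins, the former found with brevican in nets and the latter a product of oligodendrocytes at nodes of Ranvier. In the POA, *Hapln4* was 3040 and 3400 in batch 1 and 3728, 3813 and 4348 in batch 2 in intact mice. At 14 days it was 2965, 2818 and 2726, then 3468, 3269 and 2860, below every intact library of the same batch. At 4 months it was 2611, 2773 and 2732, then 3903, 3615 and 3399, below the intact mice in batch 1 and overlapping them in batch 2. The log2 difference at 14 days was -0.23 (SE 0.07, adjusted *P* = 0.767, limma, unadjusted 0.00567), with -0.18 in batch 1 and -0.31 in batch 2. At 4 months it was -0.17 (SE 0.07). In the PH, *Hapln4* differed by -0.02 at 14 days and 0.13 at 4 months.

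*Hapln2* was higher at 4 months in both regions, and the difference between the regions was 0.02 (SE 0.18), given without a test. In the PH it was 951.5, 931.8, 1282 and 1210 in intact mice, 1155, 978.1, 1084, 1300, 696.5 and 1145 at 14 days, and 874.5, 1278, 1503, 1552, 1630 and 2348 at 4 months. Of the 6 values at 4 months, 4 were above all intact ones and 1 was below all of them. The log2 difference was 0.40 (SE 0.15, adjusted *P* = 0.712, limma, unadjusted 0.0186), with 0.34 in batch 1 and 0.54 in batch 2. Without replicate 6 at 4 months it was 0.31.

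In the POA, *Hapln2* was 1056, 923.5, 1166, 1245 and 1486 in intact mice, 1066, 899.5, 984.5, 1458, 1227 and 1589 at 14 days, and 1241, 1198, 1397, 1671, 1734 and 1386 at 4 months. The groups overlapped, but in batch 1 all 3 libraries at 4 months were above those of both other groups. Relative to 14 days the log2 difference was 0.28 (SE 0.08, adjusted *P* = 0.710, limma, unadjusted 0.00233), and relative to intact mice it was 0.37 (SE 0.09). Of the oligodendrocyte markers, 9 of 10 were also above 0 in the POA relative to 14 days, with a median log2 difference of 0.10. Relative to intact mice they went the other way at 4 months, with 7 of 10 below 0 in either region and medians of -0.13 (PH) and -0.10 (POA). Among them, *Mog*, a myelin protein, differed by -0.28 and -0.21, respectively, and was the lowest of them in the PH. *Mbp* (0.03), *Mobp* (0.02) and *Ermn* (0.07) were above 0 in the PH. The summed signal of the 10 oligodendrocyte markers spanned 273127 to 384716 in the PH at 4 months against 314133 to 341987 in intact mice. The part of these cells in the *Hapln2* result was not tested.

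*Hapln1*, the link protein of cartilage and of nets, ranged from 299 to 887.3 in the PH and from 447.3 to 820.8 in the POA. Its groups overlapped over both batches in every comparison, and its log2 differences in the fits lay between -0.11 and 0.14 with SEs of 0.17 to 0.26. In batch 2 of the PH, all 3 libraries at 14 days lay above both intact ones (0.39), but not in batch 1 (-0.0076).

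*Tnr* encodes tenascin-R, *Tnc* the related tenascin-C of astrocytes and progenitors, and *Ptprz1* a receptor tyrosine phosphatase whose secreted form, phosphacan, is itself a chondroitin sulfate proteoglycan. *Tnr* was the steadiest member, with PH values of 8190 to 11645, POA values of 8164 to 11292 and coefficients of variation of 8.07% and 7.86%. *Tnc* was the most variable in the POA, at 52.8%, with 892.6 in replicate 6 at 14 days and 172.7 to 505.7 in the others. That library also held the highest summed thalamus markers of the POA, 63659 against 18325 to 45111. In the PH, *Tnc* and the highest 4-month *Ptprz1* value, 649.1 and 22849, came from replicate 3 at 4 months, whose thalamus markers summed to 72080 against 19669 to 44950 in the other PH libraries. What neighboring tissue contributed to these values was not tested. The log2 differences of *Tnc* at 4 months were 0.08 (SE 0.25) in the PH and -0.44 (SE 0.37) in the POA, and those of *Tnr* and *Ptprz1* stayed between -0.08 and 0.09 in the 6 comparisons. Within batch 1 of the PH, all 3 *Tnr* libraries at either time lay above both intact ones (0.17 and 0.22). In batch 2 the *Tnr* difference was -0.04 at either time. Within batch 1 of the POA, all 3 libraries lay below both intact ones for *Tnr* at 4 months (-0.15) and *Tnc* at 14 days (-0.43). In batch 2 these were 0.0099 and 0.025.

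Over the members as a list, few passed any threshold. Called at an adjusted *P* under 0.05 were 0 of 10 in the PH at 14 days (0% of 21977 genes), 0 of 10 at 4 months (0.0319%) and 0 of 10 between the times (0.0091%). In the POA these were 0 of 10 at 14 days (0.00468% of 21350 genes), *Ncan* at 4 months, and 0 of 10 between the times (0.0281%). At an unadjusted *P* under 0.05 in the same limma fits the members were 0, 2 and 1 of 10 in the PH, against 3.03%, 6.07% and 4.1% of all genes. In the POA they were 2, 3 and 1, against 6.14%, 8.5% and 5.11%. Groups that were apart in the same direction within both batches were seen for 0, 1 and 0 members in the PH (*Acan* at 4 months), against 1.62%, 2.58% and 0.723% of all genes. In the POA there were 2, 1 and 0 (*Ncan* and *Hapln4* at 14 days, *Ncan* at 4 months), against 1.7%, 2.43% and 0.492%. From the POA counts at 4 months nothing is read, since that comparison chose the list, and nothing is read from *Ncan* in the other POA counts, which share libraries with it. In the test of whether the 14-day change differed between regions, 0 of 10 members were called (0.00452% of 22122 genes), with 0 at an unadjusted *P* under 0.05, and here too nothing is read from *Ncan*.

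The median log2 difference of the members was 0.06 in the PH at 14 days and 0.09 at 4 months, with 8 and 7 of 10 above 0, and 0.0011 between the times. In the POA it was -0.04 at 14 days, -0.11 at 4 months and -0.03 between the times, with 7, 9 and 8 of 10 below 0. The median over all genes tested lay between -0.011 and -0.0018 in each comparison. The comparisons within a region share libraries. These medians and counts come from the fits with SV1. Without a covariate, 4 members had the opposite sign in the PH at 14 days. *Ncan* (-0.047), *Bcan* (-0.19) and *Hapln2* (-0.058) were then below 0, and *Vcan* (0.044) above.

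**Figure D3:**
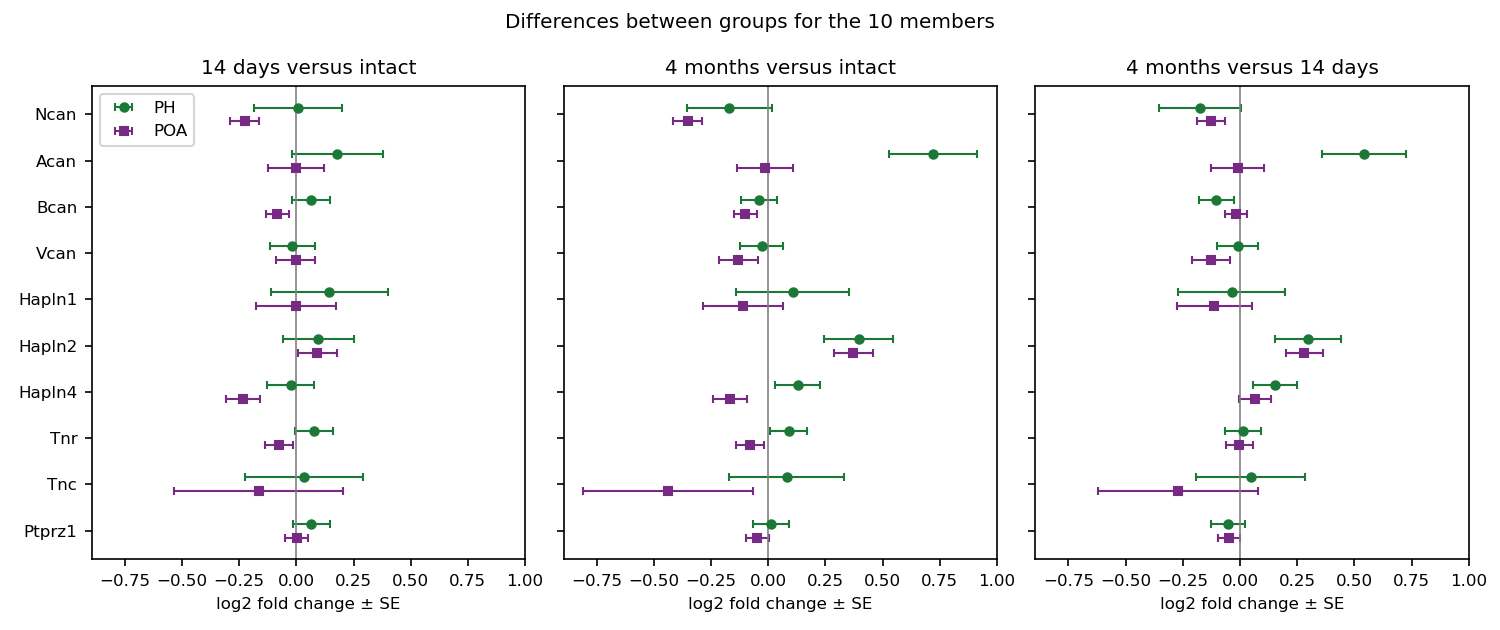
Log2 fold change ± SE of each member in the 3 comparisons, in the PH (circles) and POA (squares), from the limma fits with SV1. At 4 months versus intact, Ncan is at -0.35 in the POA, Acan at 0.72 in the PH, and Hapln2 at 0.40 and 0.37.

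To ask which members varied together between libraries of one group, which played no part in choosing them, log2 values were centered on group and batch and correlated over the 16 PH and 17 POA libraries. Of 45 pairs in each region, 0 passed an adjusted *P* of 0.05 (permutation within group and batch, 90 tests). At an unadjusted *P* under 0.05 the PH had 6 positive and 2 negative pairs and the POA 2 positive and 0 negative ones. In the PH, *Vcan* and *Ptprz1* had r = 0.832 and rho = 0.844 (permutation *P* = 0.00255 and 0.00157, adjusted *P* for r = 0.13). *Acan* and *Hapln1* had r = 0.836 and rho = 0.856 (permutation *P* = 0.0029 and 0.00289, adjusted *P* for r = 0.13). Without the 2 libraries farthest from the median of the first gene, r was 0.635 and 0.706. Within batches 1 and 2 it was 0.913 and 0.785 for the former pair and 0.864 and 0.82 for the latter. In the POA r was 0.381 for *Vcan* and *Ptprz1* and -0.0556 for *Acan* and *Hapln1*. *Bcan* had r = -0.707 with *Ptprz1* and -0.692 with *Vcan* in the PH, and without replicate 5 at 14 days, which was lowest in *Bcan* and highest in *Ptprz1*, these were -0.302 and -0.452. The neighbors *Ncan* and *Hapln4* had r = 0.547 in the PH and -0.039 in the POA.

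**Figure D4:**
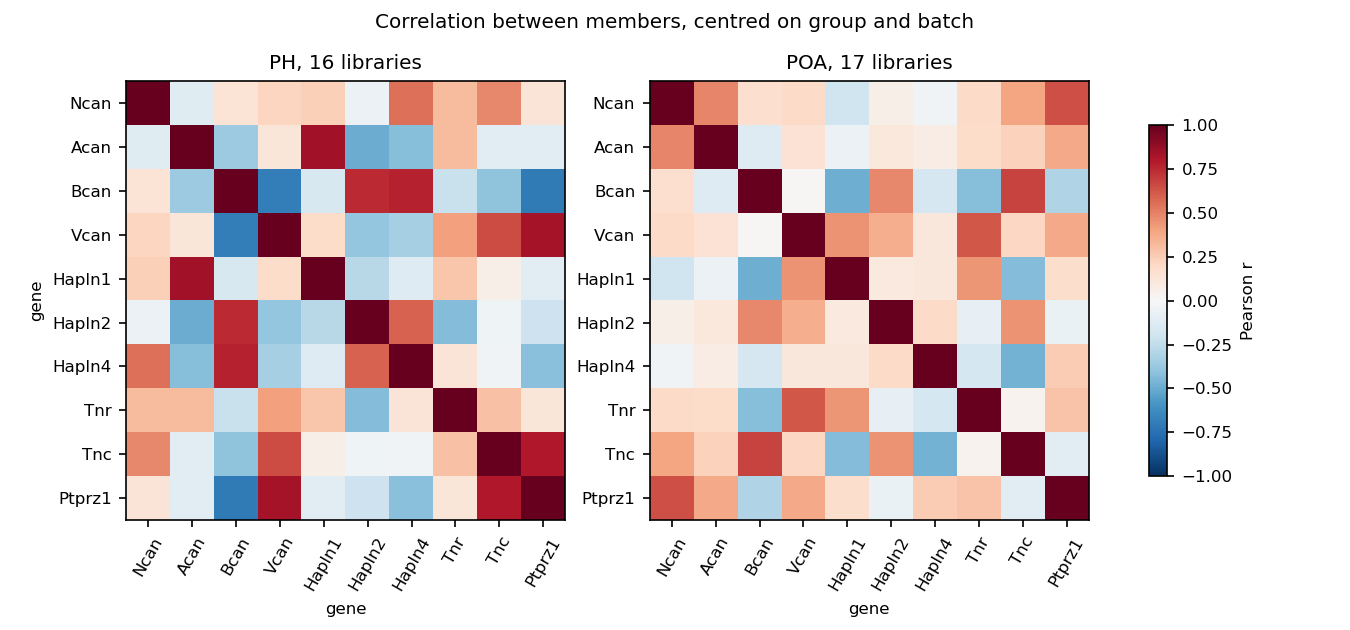
Pearson r between each pair of members across the 16 PH and 17 POA libraries, on log2 values centered on group and batch, from -1 (blue) to 1 (red). In the PH, Vcan with Ptprz1 and Acan with Hapln1 are above 0.83, and Bcan is at -0.707 with Ptprz1.

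The 5 protein-coding genes whose centered values were most like those of *Ncan* over the 33 libraries were *Trim9* (r = 0.789), *Med13l* (0.776), *Mark2* (0.729), *Peli2* (0.72) and *Ncs1* (0.706), out of 15849 genes ranked. These values are a description over libraries that share batches. Within regions, *Trim9* had 0.846 in the PH and 0.723 in the POA, whereas *Mark2* had 0.921 and 0.381. Without replicate 5 of the PH at 14 days, *Trim9* and *Med13l* were still the first 2, and *Ncs1* ranked 14. The member most like *Ncan* was *Hapln4* (0.418, rank 536), followed by *Tnc* (0.405, rank 615).

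Genes that build, modify, cut or bind the nets were looked up as 5 lists. For hyaluronan synthesis, breakdown and receptors (10 tested genes), 0 passed the adjusted threshold in either direction at 4 months, and the medians were 0.02 (PH) and -0.03 (POA). The smallest unadjusted *P* values belonged to *Hmmr*, a hyaluronan receptor of dividing cells (log2 difference -0.47, SE 0.14), and *Hapln3* (-0.32, SE 0.16) in the PH. In the POA they belonged to the hyaluronan-degrading *Cemip* (0.31, SE 0.12) and *Cemip2* (-0.09, SE 0.07). For synthesis and sulfation of chondroitin sulfate chains, 0 of 20 tested genes passed in either region. The sulfotransferase *Chst12* (0.24, SE 0.09) and the xylosyltransferase *Xylt2* (-0.29, SE 0.15) led in the PH, and *Ust* (-0.13, SE 0.08) and *Chsy3* (-0.16, SE 0.10) in the POA. In the POA, 15 of the 20 lay below 0 at 4 months, with a median of -0.06.

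Of the matrix proteases and their inhibitors, 0 of 17 tested genes passed in either region. *Adamts1*, a protease that cleaves lecticans, led in both, with 0.58 (SE 0.16, adjusted *P* = 0.420, limma) in the PH and 0.61 (SE 0.16, adjusted *P* = 0.221) in the POA. It was followed by the inhibitor *Timp3* (-0.20, SE 0.07) in the PH and the membrane-type protease *Mmp24* (-0.22, SE 0.07) in the POA. Of the receptors and ligands of the nets, 0 of 15 passed. The Nogo receptor relative *Rtn4rl2* differed by 1.00 (SE 0.32, adjusted *P* = 0.617, limma) in the PH, and the growth factor midkine, *Mdk*, by 0.20 (PH) and 0.17 (POA). The adhesion molecule *Cntn1*, a binding partner of tenascin-R and *Ptprz1*, differed by -0.12 (SE 0.05) in the POA. Of 24 other proteoglycans, 0 passed, with *Prelp* (0.37, SE 0.16) and *Spock3* (-0.22, SE 0.13) first in the PH and *Gpc4* (-0.19, SE 0.08) and *Srgn* (0.30, SE 0.13) first in the POA. Genes at an unadjusted *P* under 0.05 in the limma fits at 4 months were counted in each of the 5 lists. In the order given, the PH had 0, 1, 2, 1 and 1 higher and 1, 0, 2, 0 and 0 lower ones. The POA had 1, 0, 1, 1 and 1 higher and 0, 0, 2, 1 and 1 lower ones. Among all genes, 6.07% reached this *P* in the PH and 8.5% did so in the POA. The counts of the lists were not tested against these shares. In the other 4 comparisons, 0 genes of these lists passed the adjusted threshold.

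At 4 months the astrocyte markers had medians of 0.03 (PH) and -0.0041 (POA), the neuron markers -0.05 in both, and the oligodendrocyte precursor markers 0.03 and 0.0080. The summed astrocyte markers of the POA were 224904 to 272026 in intact mice and 233743 to 250950 at 4 months, so the groups overlapped. Microglia markers were 10 of 10 above 0 in both regions (medians 0.20 and 0.14), and endothelial ones 6 of 8 (0.28 and 0.15). In the POA at 14 days, oligodendrocyte markers were 9 of 10 below 0 (median -0.14) and neuron markers 10 of 12 (-0.05). Markers of neighboring tissue also leaned away from 0. Anterior pituitary markers in the POA were 6 of 6 tested above 0 at 14 days (median 1.99) and 5 of 6 below 0 at 4 months (-0.28). Their summed signal was 509.9 to 10826 at 14 days against 406.8 to 2154 in intact mice. Only 2 of the 8 pituitary markers reached 2 times the floor in every library. In the POA, thalamus markers were 8 of 9 above 0 at 14 days and at 4 months (medians 0.27 and 0.38). Striatum markers there were 8 of 8 and 7 of 8 below 0 (-0.31 and -0.17). In the PH at 4 months, 8 of 9 thalamus and 7 of 8 striatum markers were below 0 (-0.16 and -0.20). None of the markers in these lists passed the adjusted threshold at 14 days or at 4 months. The part of cell composition and of neighboring tissue in the members' values was not tested.

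**Figure D5:**
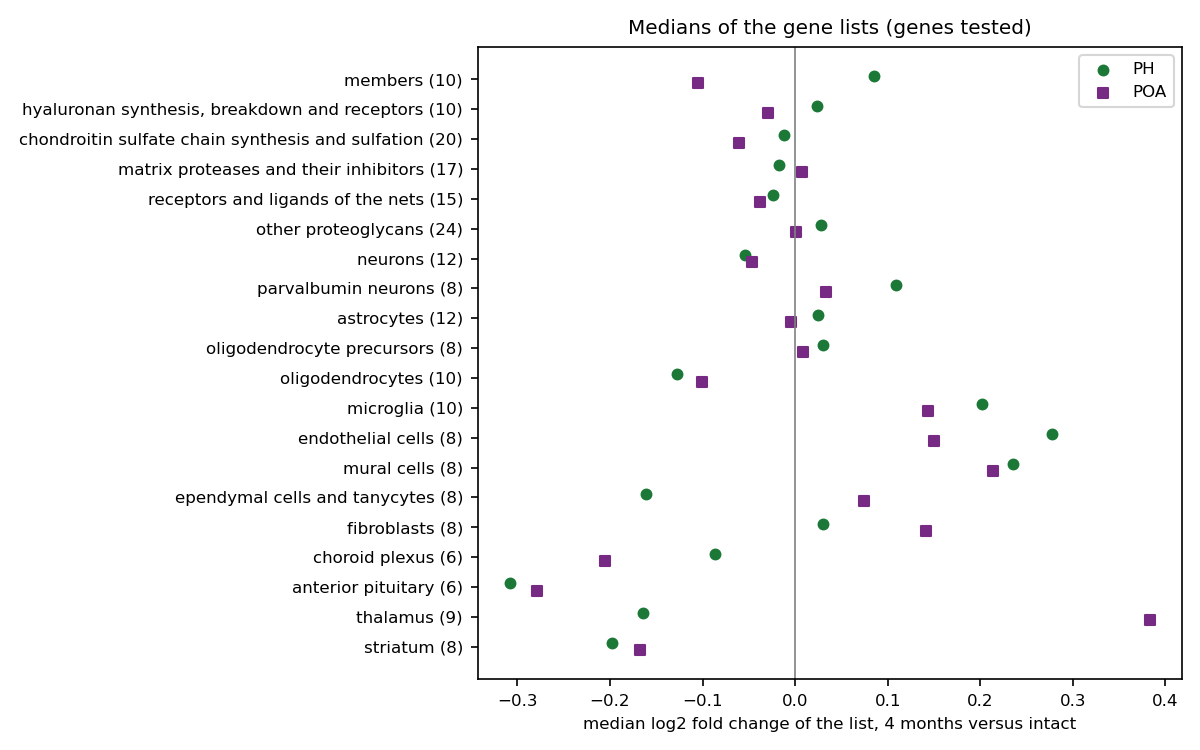
Median log2 fold change at 4 months versus intact of the members, the 5 lists of related genes and 14 lists of cell type or tissue markers, in the PH (circles) and POA (squares), with the number of genes tested in parentheses. The members are at 0.09 (PH) and -0.11 (POA), and the astrocyte markers are near 0 in both.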

How the data were processed

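Bulk poly(A) RNA-seq libraries of the PH and POA, 33 in all, were assigned to regions and times by their labels. Controls are titled sham but are otherwise called intact, which was followed. The time of 1 POA library tagged only 14 was read from its title. The authors pseudoaligned reads to the mm39 transcriptome with kallisto, imported them with tximport and analyzed them with DESeq2 and a surrogate variable. The deposited table holds a normalized signal (linear, not counts), and the step that produced it is not given in the sources used here. The library kit was stranded, and the strand setting of kallisto is not given in the sources used here.

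The main design replaced the authors' DESeq2 test by limma (3.58.1, R 4.3.3) because the values are not counts. Log2 values without a pseudocount were modeled by group and SV1 within each region, with trend and robust variance estimates and Benjamini-Hochberg adjustment over all genes tested, those at 2 times the floor in at least 4 PH or 5 POA libraries. SV1 was estimated in base R in 5 rounds. The 1259 unnamed entries were dropped. The fits were tested on simulated data. Correlations used permutation within group and batch (100000 resamples, two-sided; numpy 2.4.6, scipy 1.17.1). Nothing states that the libraries of a group came from separate mice, so the *P* values measure the spread between these libraries. Same-numbered libraries within a region did not all deviate together, so numbers were not treated as pairs. Whether same-numbered PH and POA libraries came from the same mouse is also not stated. Between PH and POA libraries of the same stage and batch, the median r was 0.23 at the same number and 0.15 at different numbers. The comparison of changes between regions took all libraries as independent.

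The members and gene lists were chosen with earlier results of these data known. Members are described by their values in every group, with statistics where the unadjusted *P* was under 0.05, and *Ncan* in every comparison. List genes are named when called, otherwise the 2 with the smallest unadjusted *P* at 4 months versus intact. The 5 genes most like *Ncan* are those with the highest Pearson r. Other markers were named after their values were seen. Positions and sequences are from GENCODE M39 and GRCm39. Alternatives covered the covariate, the block, the samples, the filter, the pseudocount, the scaling, the genes, the threshold and each library left out.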

Additional observations from a re-analysis of the deposited data

Results flagged for a closer look

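Among the 60 combinations of member and group, 2 held a library far from the others (Dixon's criterion on log2 values, 95% level), and chance alone gives about 1 in 20. *Vcan* was 893.5 in replicate 5 of the POA at 14 days, while the other 5 libraries lay between 1193 and 1329. *Ptprz1* was 22849 in replicate 3 of the PH at 4 months, while the others lay between 16234 and 17249.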

How the results depend on the processing

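The count of members called in the POA at 4 months, 1, became 0 with a fold change of at least 1.5, without a covariate, with SV1 estimated over 33 libraries, with only the 2 groups compared, in batch 1 only, in batch 2 only and without the filter. It became 2, with *Hapln2*, when the floor component and batch were the covariates, and ranged from 0 to 1 with 1 library left out. With the replicate block it was 0, and the *Ncan* difference there was -0.33. The block moved no other count of called members. The *Ncan* difference in the PH at 14 days, 0.0052, turned negative with batch in place of SV1 and with no covariate (-0.047 in both), with SV1 and batch (-0.047), the floor component and batch (-0.044), the replicate block (-0.15), only the 2 groups compared (-0.036), batch 1 only (-0.050), batch 2 only (-0.043), no filter (-0.0026) and the floor subtracted (-0.012), and spanned -0.19 to 0.13 with 1 library left out. The *Ncan* difference in the PH between the times was 0.00071 in batch 1 only. The cause was not tested.

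The *Ncan* difference in the POA at 4 months kept its sign in all 32 alternatives, from -0.53 to -0.26. These refit libraries of the comparison on which the list was chosen, so nothing is read from that sign. *Acan* (0.54 to 0.82) and *Hapln2* (0.31 to 0.54) in the PH at 4 months kept their signs in 31 alternatives. *Hapln4* in the POA at 14 days kept its sign in 32 (-0.31 to -0.16). *Acan*, *Hapln2* and *Hapln4* were called in none of these alternatives. Sequencing depth is unknown, and *Acan*, the member nearest the floor, is the one whose difference depends most on what is added to or taken from the signal, at 0.54 with 64 added and 0.81 with 20 subtracted. The correlations of members were also run without replicate 5 of the PH at 14 days, an alternative chosen after seeing the data, and 0 pairs passed.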
